A study of Homo sapiens with 9 samples.

Results

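The response of HCT116 cells to ORM1 siRNA 1, the first of the small interfering RNAs used here against ORM1, was described across all genes that could be tested. Its members were the 3 libraries of cells that received ORM1 siRNA 1 and the 3 libraries of cells that received a control siRNA, out of 9 libraries in the series, and the 20932 of 61806 counted genes that passed a filter on low counts. A further 3 libraries of cells that received ORM1 siRNA 2 were used for the estimate of the spread and to show where siRNA 1 differed from that siRNA. HCT116 is an established human colorectal carcinoma line. The culture medium was McCoy's 5A supplemented with bovine serum, the transfection reagent was Lipofectamine RNAiMAX, and RNA was extracted with Trizol. Every library carries the batch label Day 3. The question was which genes differed in level after knockdown of ORM1. The labels do not say whether the libraries of a group came from separate cultures, so the p-values cover only the spread seen among the libraries, and that spread may be technical.

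ORM1 encodes alpha-1-acid glycoprotein, also called orosomucoid, an abundant plasma protein that is made mainly by the liver and rises in the acute phase of inflammation. It is a secreted lipocalin that binds many lipophilic drugs. A small interfering RNA loads 1 of its strands into an Argonaute protein, which cuts transcripts that match the strand along its length. Through a short seed at its start, the same strand can also lower transcripts that match only in part, so changes under 1 siRNA may come through the target or through other transcripts. These routes cannot be told apart with 1 siRNA, and the sources used here do not name the sequence of either siRNA.

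The libraries held 60698684, 69847444 and 67885703 counts under siRNA 1 and 65141295, 61984423 and 65837173 counts in control. Levels are given as counts per 1000000 of the library after TMM scaling (CPM), are not corrected for gene length, and ± gives the SD over 3 libraries. A gene was called at an adjusted p below 0.05 by the quasi-likelihood test of edgeR, adjusted by the Benjamini-Hochberg method over all 20932 genes, and "rose" and "fell" below are used only for called genes. The epithelial markers, such as the keratins KRT8 and KRT19 and the cadherin CDH1, were present in every library, with a summed level of 4874 to 5076 CPM under siRNA 1 and 5437 to 5749 CPM in control. Leukocyte markers summed to at most 1.35 CPM under siRNA 1 and 2.02 CPM in control, with CD3D, CD3E, MS4A1 and FCGR3A at 0, and endothelial markers to at most 1.89 and 2.56 CPM. Hepatocyte markers summed to at most 2.30 CPM under siRNA 1 and 2.05 CPM in control, with APOB and TTR at 0. Fibroblast markers summed to 52.0 to 53.6 CPM under siRNA 1 and 56.2 to 64.2 CPM in control, most of it COL1A1, with COL1A2 and DCN at 0. In bulk RNA a smaller number of cells of a type and less RNA per cell cannot be told apart. The share of counts on mitochondrially encoded genes was 8.34% to 8.62% under siRNA 1 and 8.34% to 8.51% in control.

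ORM1 was depleted under siRNA 1. Its counts were 0, 0 and 5 in the siRNA 1 libraries, against 63, 56 and 59 in the control libraries, so the groups did not overlap. The mean level was 2.68% of control, and the two-sided exact permutation test returned p = 0.1, the smallest p that 3 against 3 libraries allow. The log2 change was −5.09 (SE 1.06), with an adjusted p of 0.00287 in edgeR's quasi-likelihood test. At these depths a count of 0 leaves room for up to 3 counts, or 0.0429 to 0.0489 CPM, by counting error alone. In the deposited table counts of 4 were more frequent than counts of 3 or of 5, so the counts of such a low gene may rest on fewer fragments than they state. ORM2, which lies 3.4 kb from ORM1 on chromosome 9 and encodes a near-identical form of the glycoprotein, had counts of 19, 8 and 0 under siRNA 1, against 38, 39 and 66 in control. Its siRNA 1 counts all lay below its control counts, at 19.3% of control on average, but it did not pass the test, with a log2 change of −2.38 (SE 0.99) and an adjusted p of 0.0939. DESeq2 and limma-voom called the fall of ORM2, at adjusted p-values of 0.0322 and 0.0328. How the counting divided reads between these genes is unknown.

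The response was wide and mostly small. Under siRNA 1, 6389 of 20932 genes were called (30.5%), of which 3281 rose (15.7% of tested genes) and 3108 fell (14.8%). At 9149 genes (43.7%) the 3 siRNA 1 values and the 3 control values did not overlap. The median log2 change was 0.34 among genes that rose, −0.32 among genes that fell and 0.007 among all tested genes. A change of at least 1.5-fold was seen in 789 of the genes that rose and 645 that fell, of at least 2-fold in 290 and 237, and of at least 4-fold in 71 and 56. The called share grew with level, which gives more counts and a smaller counting error. It was 3.5% in the lowest quartile of genes by mean level, 20.2% and 41.9% in the next quartiles and 56.5% in the highest, where 27.2% rose and 29.3% fell. Among protein-coding genes 39.7% were called, against 10.8% of long non-coding genes. Of the long non-coding genes 261 rose and 115 fell. Genes that rose took 29.8% to 29.9% of the counts of a siRNA 1 library and 24.5% to 24.6% of a control library. Genes that fell took 23.5% to 23.7% of a siRNA 1 library and 28.7% to 29% of a control library. Since the calls were made from these libraries, those shares describe how much RNA was involved and are not a separate test. Among the 197 called genes named in the following paragraphs, the highest adjusted p was 0.0169.

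**Figure D1:**
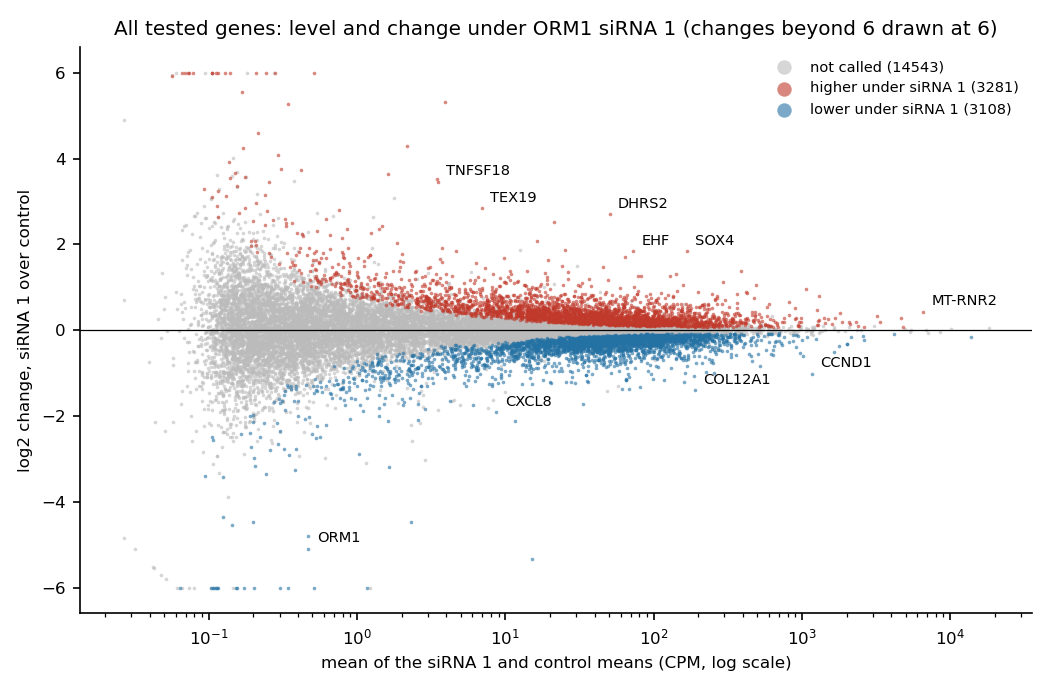
Each point is 1 of the 20932 tested genes, with the mean of its siRNA 1 and control levels in CPM on a log axis across and its log2 change under siRNA 1 upward, and changes beyond 6 drawn at 6. The 3281 genes that rose (red) and 3108 that fell (blue) lie mostly close to 0, and ORM1 lies at −5.09 among genes of low level.

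Above 5 CPM, the genes with the largest rises include signalling, epithelial and neuronal genes and 1 germline gene. As whole lists, germline and cancer-testis genes had 1 of 13 higher (7.69%) and 2 lower (15.4%). Neuronal and secretory-granule genes had 5 of 11 higher and 3 lower, with a median log2 change of −0.05. The following 12 genes were taken by size of log2 change among called genes with an official symbol, no overlap between the groups and, in the higher group, at least 5 CPM on average. TNFSF18, the ligand of the T cell receptor GITR, had 6.34, 6.77 and 6.2 CPM under siRNA 1, against 0.575, 0.417 and 0.757 CPM in control. TEX19, a germ cell protein that restrains retrotransposons in mice, had 13, 12.7 and 11.1 CPM under siRNA 1, against 1.89, 1.31 and 1.88 CPM in control. For DHRS2, a short-chain dehydrogenase/reductase, the levels were 86.1, 86.5 and 89.99 CPM under siRNA 1, against 13.5, 13.3 and 13.5 CPM in control. TNFSF18 and TEX19 were low in control, while DHRS2 had 13.3 to 13.5 CPM there. Mean siRNA 1 levels of these 3 genes were higher by ratios of 11, 7.22 and 6.5. SCG2, a granin of secretory granules, had 26.9, 25.8 and 27 CPM under siRNA 1, against 5.81, 7.68 and 5.3 CPM in control. VSNL1, a neuronal calcium sensor, had 39.2, 41.2 and 38.1 CPM under siRNA 1, against 10.7, 10.3 and 11.2 CPM in control. YPEL1 had 6.47, 5.24 and 5.94 CPM under siRNA 1, against 1.98, 0.913 and 1.79 CPM in control. SOX4, an HMG-box transcription factor of progenitor cells, had 264, 267 and 258 CPM under siRNA 1, against 70.9, 71.7 and 76.1 CPM in control. EHF, an ETS transcription factor of epithelia, had 118, 111 and 114 CPM under siRNA 1, against 33.5, 30.2 and 31.3 CPM in control. SOX4 and EHF thus passed 100 CPM in every siRNA 1 library and in no control library. COL17A1, the transmembrane collagen of hemidesmosomes, had 7.46, 7.04 and 7.35 CPM under siRNA 1, against 1.62, 2.47 and 2 CPM in control. ADAMTS14, a protease that trims procollagen, had 103, 98.6 and 94.6 CPM under siRNA 1, against 30.5, 28.5 and 31.1 CPM in control. KISS1R, the kisspeptin receptor, had 14, 15 and 15.5 CPM under siRNA 1, against 4.62, 5.11 and 4.17 CPM in control. PROM2, a prominin of plasma membrane protrusions, had 6.01, 5.61 and 5.02 CPM under siRNA 1, against 1.7, 1.59 and 1.92 CPM in control. Log2 changes of the 12 genes ran from 1.67 for PROM2 to 3.46 for TNFSF18, and their highest adjusted p in edgeR's quasi-likelihood test was 8.49e-05, for YPEL1.

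The 12 largest falls by the same rule, which leaves out genes of lower level such as ORM1, include an inflammatory chemokine, matrix and actin genes and enzymes of lipid and amino acid metabolism. CXCL8, the neutrophil chemokine interleukin 8, had 4.06, 3.46 and 3.48 CPM under siRNA 1, against 12.2, 14.2 and 14.8 CPM in control. COL12A1, a chain of a collagen that decorates fibrils, had 105, 106 and 99.7 CPM under siRNA 1, against 284, 272 and 264 CPM in control. TGM2, a transglutaminase that cross-links proteins, had 37.2, 37.4 and 38.2 CPM under siRNA 1, against 96.2, 101 and 96.5 CPM in control. CFL2, a cofilin that severs actin filaments, had 34.2, 32.8 and 36.3 CPM under siRNA 1, against 88.7, 85.3 and 91.6 CPM in control. In each of these 4 genes the highest siRNA 1 library lay below 50% of the control mean. NCEH1, a hydrolase of cholesteryl esters, had 18.4, 14.2 and 14 CPM under siRNA 1, against 51.6, 50.01 and 51.9 CPM in control. KYAT1, a kynurenine aminotransferase, had 2.82, 2.59 and 3.99 CPM under siRNA 1, against 9.08, 6.91 and 7.2 CPM in control. RPE65, the retinoid isomerase of the eye, had 4.48, 4.51 and 5.08 CPM under siRNA 1, against 11.7, 11.6 and 11.2 CPM in control. ANKRD40, an ankyrin repeat protein, had 46.3, 48.8 and 43.5 CPM under siRNA 1, against 125, 110.1 and 114 CPM in control. The remaining genes encode membrane or neuronal proteins. The bicarbonate transporter SLC4A8 had 2.78 ± 0.62 CPM under siRNA 1 and 9.3 ± 0.69 CPM in control. The metalloprotease family member ADAM32 had 2.03 ± 0.28 CPM under siRNA 1 and 6.42 ± 0.54 CPM in control. The neuronal adhesion protein CNTN1 had 4.83 ± 0.74 CPM under siRNA 1 and 11.5 ± 1.4 CPM in control. The huntingtin-associated protein HAP1 had 7.64 ± 0.45 CPM under siRNA 1 and 18.2 ± 0.52 CPM in control. Log2 changes ran from −1.91 for CXCL8 to −1.25 for HAP1, and the highest adjusted p in edgeR's quasi-likelihood test was 0.000118, for KYAT1.

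**Figure D2:**
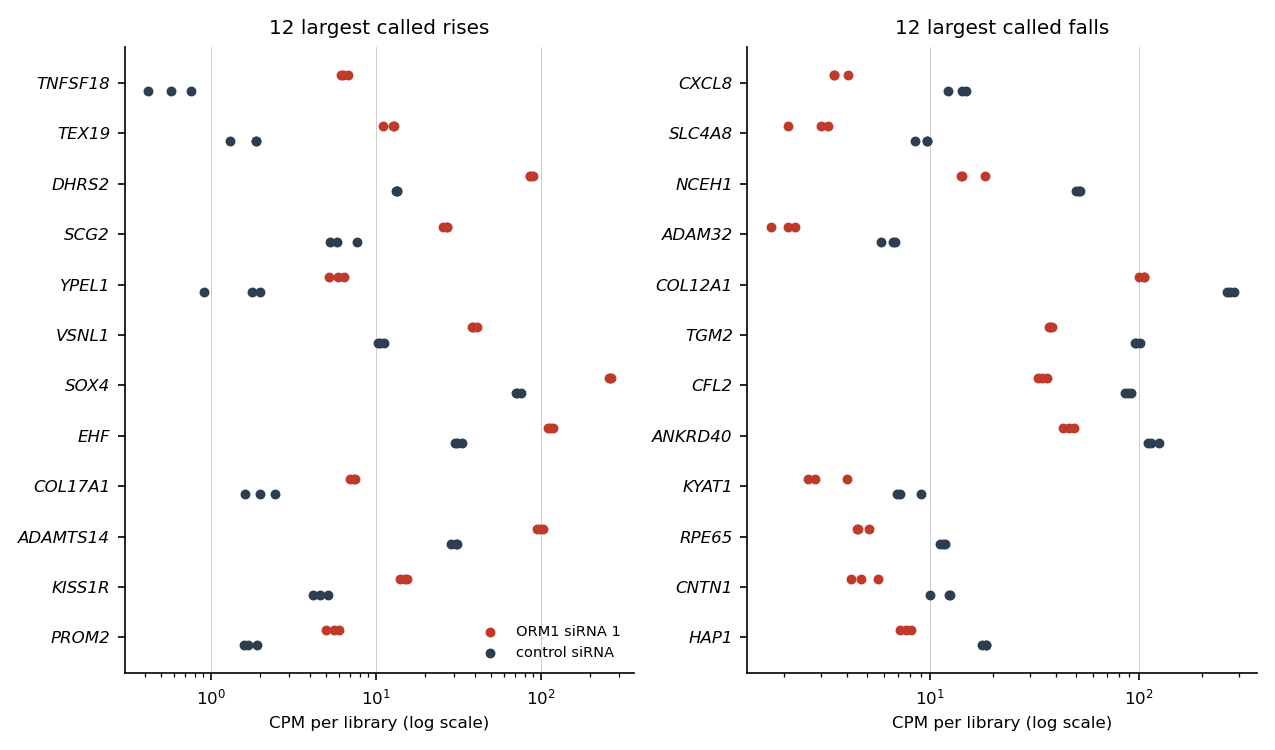
Levels in CPM, on log axes, of the 12 largest called rises (left) and falls (right) among genes with at least 5 CPM in the higher group and no overlap, with 1 point per library for siRNA 1 (red, upper row of each gene) and control (dark, lower row). No siRNA 1 point overlaps a control point of the same gene, and TNFSF18 lies at 6.20 to 6.77 CPM under siRNA 1 against 0.417 to 0.757 CPM in control.

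By difference in CPM, a measure that favours abundant and long transcripts, the largest shifts were modest in fold. MT-RNR2, the large ribosomal RNA of mitochondria, had 7428, 7683 and 7592 CPM under siRNA 1, against 5415, 5569.6 and 5829 CPM in control. Its small partner MT-RNR1 also rose, at 1078 ± 20.9 CPM under siRNA 1 and 883 ± 60.3 CPM in control. MT-ND4, a subunit of respiratory complex I made in mitochondria, fell instead, at 12745, 13173 and 12946 CPM under siRNA 1, against 14902, 14718 and 13935 CPM in control. Among 15 tested mitochondrially encoded genes 4 rose and 2 fell, with a median log2 change of 0.01. Rises followed in AKAP12, a scaffold of protein kinase A, at 5147 ± 52.9 CPM under siRNA 1 and 4215 ± 46.1 CPM in control. The translation factor EEF2 had 3569 ± 51.8 CPM under siRNA 1 and 2852 ± 63 CPM in control. The actin-associated protein ITPRID2 had 1657 ± 28.9 CPM under siRNA 1 and 957 ± 17.8 CPM in control. KITLG, the ligand of the KIT receptor, had 1453, 1387 and 1408 CPM under siRNA 1, against 697, 734 and 753 CPM in control, a mean ratio of 1.94. PTMA, HNRNPA1 and HSP90AB1, which act in chromatin, RNA splicing and protein folding, had log2 changes of 0.40, 0.48 and 0.18. On the falling side CCND1, the G1 cyclin D1, had 769.8, 779 and 785 CPM under siRNA 1, against 1578, 1572 and 1545 CPM in control, a mean siRNA 1 level of 49.7% of control. The others were structural and metabolic genes. The membrane-binding protein ANXA2 had 1361 ± 29.6 CPM under siRNA 1 and 1929 ± 58 CPM in control. The epithelial keratin KRT8 had 1545 ± 43.8 CPM under siRNA 1 and 2011 ± 71.6 CPM in control. EZR, a linker of membrane and cytoskeleton, had 1790.2 ± 28.8 CPM under siRNA 1 and 2251 ± 22.5 CPM in control, and the actin cross-linker FLNA had a log2 change of −0.60. HMGA1, a chromatin protein, and PKM, the last kinase of glycolysis, had log2 changes of −0.32 and −0.23.

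To show how the change was spread over known processes, called members of gene lists and symbol families were counted and set beside the background of 15.7% of tested genes that rose and 14.8% that fell. Lists of abundant genes are better read against the highest quartile of genes by level, where 27.2% rose and 29.3% fell. The lists were chosen with earlier results of these data known and no test of a list was made. Not all of the 41 lists and 48 symbol families are reported here.

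**Figure D3:**
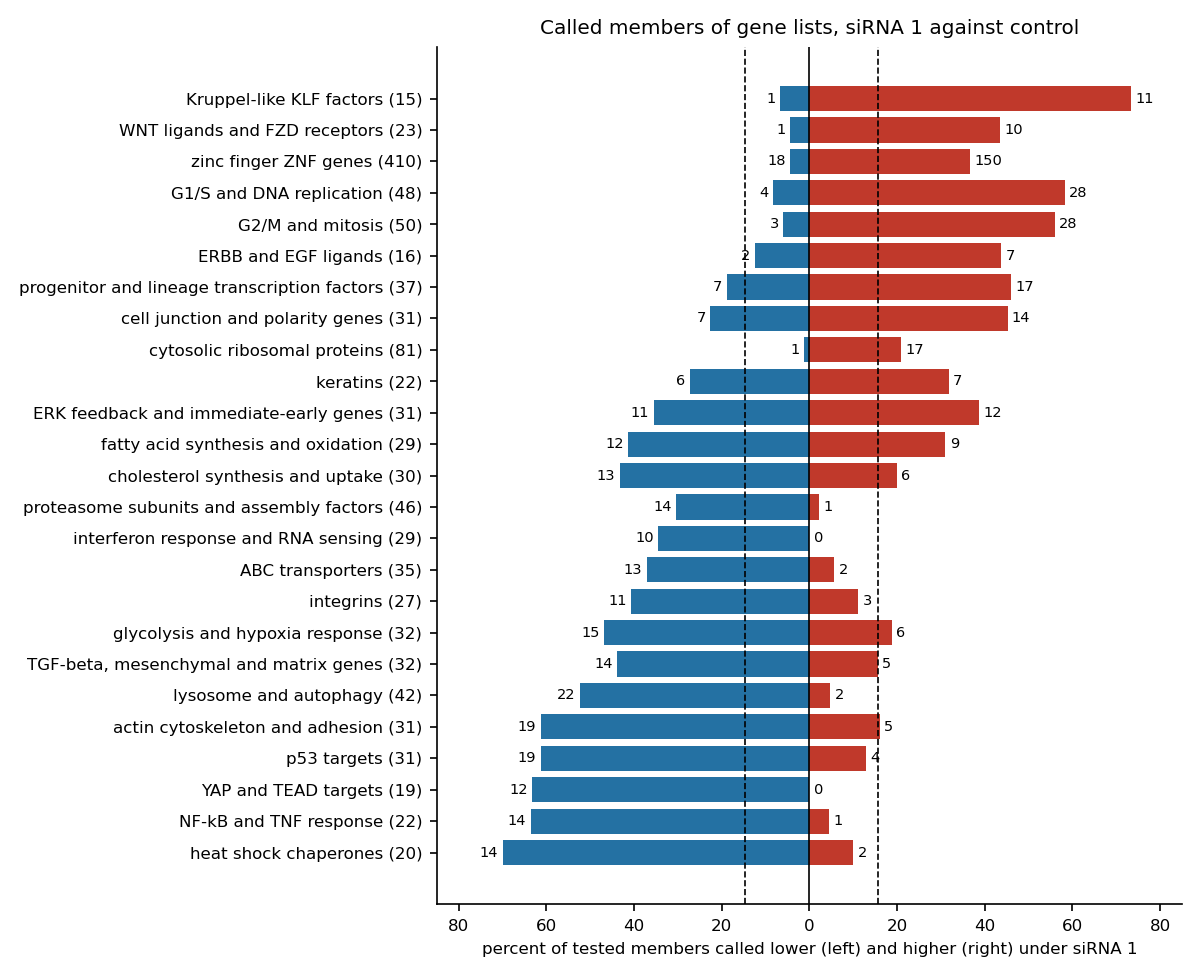
Percent of tested members of 25 gene lists called higher (red, to the right) and lower (blue, to the left) under siRNA 1. Counts stand at the bar ends, the number tested is in brackets, and dashed lines mark the background of 15.7% and 14.8%. The 25 were picked from 41 lists and 48 symbol families, so they do not show how often known processes leaned 1 way. KLF factors have 11 members higher and 1 lower, and the list of heat shock chaperones has 2 higher and 14 lower.

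KLF and ZNF transcription factors rose far more often than they fell. In the Kruppel-like KLF family, zinc finger factors of differentiation and growth control, 11 members rose and 1 fell out of 15, with a median log2 change of 0.29. The single fall was not called when any of the 3 control libraries, siRNA 1 replicate 1 or siRNA 1 replicate 3 was left out. KLF7 had 34.3, 32.3 and 32.8 CPM under siRNA 1, against 15.5, 15 and 17.2 CPM in control. KLF10, a TGF-beta-inducible member, had 260.2 ± 3.1 CPM under siRNA 1 and 177 ± 4.2 CPM in control. KLF2, a regulator of quiescence in several cell types, had 35.4 ± 0.71 CPM under siRNA 1 and 23.2 ± 1.3 CPM in control. KLF6 and KLF13 rose by log2 changes of 0.51 and 0.56. In the ZNF family, largely DNA-binding proteins of which many repress transposable elements, 150 members rose and 18 fell out of 410, with a median of 0.20. The summed ZNF level was 8424 ± 42.9 CPM under siRNA 1 and 7391 ± 20.5 CPM in control. ZNF616 had 14.4, 15.7 and 16.3 CPM under siRNA 1, against 4.68, 7.36 and 6.54 CPM in control. ZNF587B had 16.7 ± 0.63 CPM under siRNA 1 and 7.54 ± 0.25 CPM in control. In the other direction ZNF487 had 1.33 ± 0.14 CPM under siRNA 1 and 3.22 ± 0.33 CPM in control. Many ZNF genes are close copies of each other, and how shared reads were counted is unknown. Of the progenitor and lineage factors, 17 members rose and 7 fell out of 37. Besides SOX4 and EHF these include MYB, a factor of immature cells, at 9.48, 11 and 7.97 CPM under siRNA 1, against 3.74, 2.5 and 3.39 CPM in control. GATA2, best known from blood stem cells, had 23.5 ± 0.92 CPM under siRNA 1 and 11.1 ± 0.47 CPM in control. LIN28A, an RNA-binding protein of stem cells, had 1.43 ± 0.27 CPM under siRNA 1 and 0.278 ± 0.0092 CPM in control. Those that fell include ID2, which blocks basic helix-loop-helix factors, at 73.8, 70.3 and 73.3 CPM under siRNA 1, against 154, 162 and 174 CPM in control. RUNX1, a factor of blood and epithelial progenitors, had 53.6 ± 1.1 CPM under siRNA 1 and 87.5 ± 2.1 CPM in control. ETS1 fell by the same log2 change as RUNX1, −0.71. In the SOX family SOX8 rose as well, at 16.1 ± 0.84 CPM under siRNA 1 and 9.09 ± 0.62 CPM in control. SOX9, the SOX factor of intestinal crypts, did not pass the test, at 233 ± 2.3 CPM under siRNA 1 and 229 ± 3.3 CPM in control. HOX genes were close to the background, with 6 of 32 higher (18.8%) and 7 lower (21.9%). HOXC10 and HOXA9 rose by log2 changes of 1.31 and 0.52. HOXA6 had a change of −1.31.

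Genes of epithelial identity moved in both directions. GRHL2, a grainyhead factor that maintains epithelial state, had 23.2, 24.2 and 21.2 CPM under siRNA 1, against 12.4, 9.2 and 11.8 CPM in control. The epithelial splicing factor ESRP1 had 172, 176 and 167 CPM under siRNA 1, against 99.9, 96 and 103 CPM in control. CDH1, the adherens junction protein E-cadherin, had 113, 114 and 112 CPM under siRNA 1, against 70.8, 69.9 and 67.2 CPM in control. In all 3 genes, chosen as the largest called rises of their list, every siRNA 1 library lay above every control library. Among all tested genes 43.7% had no overlap between the groups. Among cell junction and polarity genes 14 members rose and 7 fell out of 31. Of those that rose, the claudin CLDN7 had 114 ± 1.5 CPM under siRNA 1 and 73.1 ± 3.7 CPM in control. The tight junction protein MARVELD3 had 22.1 ± 0.73 CPM under siRNA 1 and 11.8 ± 0.53 CPM in control. The desmosomal plaque gene PKP3 had 129 ± 0.62 CPM under siRNA 1 and 79.2 ± 2.2 CPM in control. Other tight junction genes fell, with log2 changes of −0.32 for CLDN4, −0.42 for OCLN and −0.42 for CGN. The most abundant keratins were lower. Beside KRT8, KRT18 had 642 ± 18.6 CPM under siRNA 1 and 818 ± 39.3 CPM in control and KRT19 a log2 change of −0.21. Among the keratins that rose, KRT23 had 19.97, 20.2 and 20.6 CPM under siRNA 1, against 8.46, 8.37 and 6.74 CPM in control. KRT20, a marker of differentiated colon epithelium, had 2.22, 2.23 and 1.72 CPM under siRNA 1, against 0.242, 0.609 and 0.424 CPM in control. KRT13 had 2.83, 2.95 and 3.52 CPM under siRNA 1, against 0.939, 0.945 and 0.818 CPM in control. The keratin family as a whole had 7 of 22 tested members higher (31.8%) and 6 lower (27.3%), with rises and falls also among its low members, and its summed level was 3491 ± 94.7 CPM under siRNA 1 and 4306 ± 164 CPM in control. With a stricter count filter of at least 1 CPM in 3 libraries, 4 keratins rose.

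Genes of the actin cytoskeleton, of YAP targets and of cell-matrix contact stood mostly on the falling side. In the actin and adhesion list 5 members rose and 19 fell out of 31, with a median log2 change of −0.26. PXN, the focal adhesion scaffold paxillin, had 348, 362 and 358 CPM under siRNA 1, against 564, 532 and 535 CPM in control. MYH10, a non-muscle myosin, had 81.5 ± 2.6 CPM under siRNA 1 and 129.5 ± 3 CPM in control. TPM2, a tropomyosin, had 133 ± 2.7 CPM under siRNA 1 and 206 ± 10.7 CPM in control. DIAPH3, a formin that nucleates actin filaments, had 21.4, 24.7 and 21.1 CPM under siRNA 1, against 38.6, 34.8 and 38.9 CPM in control. In contrast TPM4, another tropomyosin, had 552, 573 and 547 CPM under siRNA 1, against 218, 212 and 218 CPM in control. ANXA1, a membrane-binding annexin, had 543, 550.3 and 548 CPM under siRNA 1, against 293, 306 and 306 CPM in control. The 2 tropomyosins thus moved in opposite directions, each with no overlap between the groups. Of the YAP and TEAD targets, genes induced when the co-activator YAP is nuclear, 0 members rose and 12 fell out of 19, with a median of −0.30. NT5E, the ecto-nucleotidase CD73, had 172, 169 and 169 CPM under siRNA 1, against 335, 332 and 352 CPM in control. CRIM1, a transmembrane protein that binds BMPs, had 70.2, 60.6 and 58.4 CPM under siRNA 1, against 121, 123 and 119.8 CPM in control. ARHGEF17, a guanine nucleotide exchange factor, and PTPN14, a phosphatase, had log2 changes of −0.69 and −0.53. In the rising direction 0 of the 19 were called by edgeR, 1 at an unadjusted p below 0.05 and 1 each by DESeq2 and limma-voom. MYOF was at 416 ± 14.1 CPM under siRNA 1 and 398 ± 11.2 CPM in control and did not pass the test. Among integrins, the receptors for matrix, 3 members rose and 11 fell out of 27. Without control replicate 2, 5 rose. ITGA2, a collagen receptor chain, had 142 ± 2.7 CPM under siRNA 1 and 242 ± 7.3 CPM in control. ITGA6, a laminin receptor chain, had 227 ± 3 CPM under siRNA 1 and 315 ± 3.5 CPM in control. Its partner ITGB4, the hemidesmosomal integrin, rose, at 978, 1004 and 998 CPM under siRNA 1, against 657, 629 and 617 CPM in control, beside the rise of COL17A1 of the same structure. LAMB3, a chain of the laminin that hemidesmosomes bind, fell, at 88.2 ± 4.8 CPM under siRNA 1 and 133 ± 2 CPM in control.

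Among genes of TGF-beta response, mesenchymal state and matrix 5 members rose and 14 fell out of 32. ZEB1, a repressor of epithelial genes, had 5.38, 6.51 and 5.79 CPM under siRNA 1, against 12.1, 13.9 and 12.4 CPM in control. VIM, the intermediate filament gene of mesenchymal cells, had 5.46, 7.07 and 6.47 CPM under siRNA 1, against 11.7, 10.7 and 12.4 CPM in control. FN1, the matrix protein fibronectin, moved the other way, at 81.8, 78.4 and 78.6 CPM under siRNA 1, against 48.3, 47.6 and 44.4 CPM in control. Of the ADAM and ADAMTS proteases 5 of 23 rose (21.7%) and 5 fell (21.7%), and of the matrix metalloproteinases 4 of 16 rose and 1 fell. ADAM19, which rose, had 404, 409 and 398 CPM under siRNA 1, against 189.6, 185 and 180.4 CPM in control, while ADAM32 fell, as given above. MMP11 had 13.6 ± 1.7 CPM under siRNA 1 and 6.27 ± 0.44 CPM in control and rose. The summed fibroblast markers, at 52.0 to 53.6 CPM under siRNA 1 and 56.2 to 64.2 CPM in control, were lower too, and their part in these results was not tested.

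Falls outnumbered rises among NF-kB and TNF response genes. NF-kB is held in the cytoplasm by inhibitors such as NFKBIA, which it induces itself, and drives chemokine and survival genes once released. In the NF-kB and TNF list 1 member rose and 14 fell out of 22, with a median log2 change of −0.59. Besides CXCL8 they include the chemokine CXCL2, at 0.701, 0.315 and 0.398 CPM under siRNA 1, against 1.71, 1.43 and 2.05 CPM in control. The apoptosis inhibitor BIRC3 had 11.3, 12.3 and 12.6 CPM under siRNA 1, against 28.8, 26.9 and 28.1 CPM in control. NFKBIA itself had 20.8, 23.5 and 22.7 CPM under siRNA 1, against 36.4, 41 and 36.7 CPM in control. NFKB2, the precursor of the p52 subunit, had 164 ± 7.5 CPM under siRNA 1 and 207 ± 4 CPM in control. For each of these genes the siRNA 1 libraries lay below all control libraries. All but NFKB2 were chosen as large falls of the list, and 43.7% of all tested genes had no overlap between the groups. IER3, an early response gene, was the member that rose, at 409 ± 18 CPM under siRNA 1 and 309 ± 9.7 CPM in control. The promoters of BIRC3, NFKBIA and CXCL2 are shown because they hold an NF-kB motif in the 250 bases before their annotated start, and capitals mark the motif. No window is shown for CXCL8, the largest fall of the list. The BIRC3 window (chr11:102317270-102317373, plus strand) holds 2 motifs, at positions −199 and −135 from the start, the NFKBIA window (chr14:35404806-35404845, minus strand) holds 1 at −81, and the CXCL2 window (chr4:74099248-74099288, minus strand) holds 2 that overlap, at −78 and −77. Sequences and coordinates are RefSeq's on GRCh38.p14.
BIRC3: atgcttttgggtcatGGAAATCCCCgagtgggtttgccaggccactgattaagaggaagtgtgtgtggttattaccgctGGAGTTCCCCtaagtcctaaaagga
NFKBIA: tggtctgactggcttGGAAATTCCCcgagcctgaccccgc
CXCL2: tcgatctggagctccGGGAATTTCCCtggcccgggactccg
Searched on both strands from 250 bases before to 50 bases after the start, the motif was in 6 of the 12 members that fell and have a promoter in the table, in 4 of 7 that were not called, and in 5.7% of all 27305 promoters. The member share therefore did not follow the calls within the list.

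Interferon response genes had falls and no called rise. Of the tested interferon response and RNA sensing genes, which respond to foreign RNA among other cues, 0 of 29 rose and 10 fell. In the rising direction 1 had an unadjusted p below 0.05 in edgeR, DESeq2 and limma-voom called 0 each, and 1 was called without control replicate 3. IFIH1, a sensor of double-stranded RNA, had 4.35, 4.42 and 4.85 CPM under siRNA 1, against 8.95, 8.12 and 8.71 CPM in control. OASL and IFI6, which interferon induces, had log2 changes of −0.87 and −0.84. Of the interleukins and their receptors 3 of 40 were higher (7.5%) and 5 lower (12.5%), beside the background of 15.7% and 14.8%. The TNF superfamily had 3 of 22 higher (13.6%) and 5 lower (22.7%). With so few calls, and a called share that depends on level, neither family is set apart from the background. In that family TNFRSF9, a co-stimulatory receptor of T cells, had 0.424, 0.329 and 0.221 CPM under siRNA 1, against 3.07, 3.21 and 2.61 CPM in control. TNFRSF10D, a decoy receptor for TRAIL, had 121 ± 3.5 CPM under siRNA 1 and 216 ± 2.5 CPM in control. TNFRSF21, a death receptor, rose, at 136 ± 4 CPM under siRNA 1 and 93.3 ± 5 CPM in control. Leukocyte markers summed to 0.916 to 1.35 CPM under siRNA 1 and 1.38 to 2.02 CPM in control, and their part in the immune genes that fell was not tested. In the acute-phase and plasma protein list 2 members rose and 4 fell out of 17. The count of rises was 1 without control replicate 1 or 2 or siRNA 1 replicate 1 or 3. SERPINA1, the antitrypsin of plasma, had 5.75 ± 0.54 CPM under siRNA 1 and 9.02 ± 0.52 CPM in control. IL6ST, the shared receptor chain of the interleukin 6 family, had 69.2 ± 1.4 CPM under siRNA 1 and 97.2 ± 0.68 CPM in control.

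WNT and ERBB pathway genes rose more often than they fell. In the family of WNT ligands and their FZD receptors 10 members rose and 1 fell out of 23, with a median log2 change of 0.22. WNT16 had 199, 203 and 201 CPM under siRNA 1, against 81, 83.4 and 79.8 CPM in control. WNT9A had 21.9, 22.1 and 19.2 CPM under siRNA 1, against 12, 11.3 and 8.82 CPM in control. WNT3A, a canonical ligand, rose by a log2 change of 0.80. The count of rises was 6 without control replicate 1 and also with no count filter. In BMP signalling 4 members of 16 rose and 3 fell, and among semaphorins and plexins 5 of 26 rose and 5 fell. With so few calls, and a called share that depends on level, neither list is set apart from the background of 15.7% and 14.8%. BMP4, ID3 and SEMA3A, given below, were chosen as the largest called rises of these lists. BMP4, a ligand of the BMP pathway, had 179.5, 184 and 179 CPM under siRNA 1, against 76.3, 76 and 73.3 CPM in control. Of the ID genes that BMP signals induce, ID3 rose, at 60.7 ± 2.2 CPM under siRNA 1 and 33.7 ± 1.5 CPM in control, while ID2 fell. Among ERBB receptors and their ligands 7 members rose and 2 fell out of 16, and the summed level was 3211 ± 26.1 CPM under siRNA 1 and 2521 ± 11.3 CPM in control. The ligand AREG had 464, 471 and 469.95 CPM under siRNA 1, against 259, 259 and 261 CPM in control. EREG had 721, 723 and 721 CPM under siRNA 1, against 467, 491 and 469.9 CPM in control, and BTC rose by a log2 change of 0.98. The ligands HBEGF and TGFA fell, with log2 changes of −0.80 and −0.49. Hence ligands of the same receptor moved in both directions. In the insulin-like growth factor axis the adaptor IRS1 had 112, 112 and 113 CPM under siRNA 1, against 68.4, 63.8 and 62.8 CPM in control. The binding protein IGFBP3 rose by a log2 change of 1.23, and the adaptor IRS2 had a change of −0.41. The WNT inhibitors DKK1 and NOTUM rose by 0.85 and 1.03 on the log2 scale. The guidance cue SEMA3A had 17.9 ± 0.79 CPM under siRNA 1 and 8.65 ± 0.51 CPM in control. Of the ERK feedback and immediate-early genes 12 of 31 rose and 11 fell. The immediate-early factor EGR3 had 11.5, 13.1 and 10.8 CPM under siRNA 1, against 4.8, 4.54 and 5.09 CPM in control. The ERK phosphatase DUSP4 had 324 ± 5.5 CPM under siRNA 1 and 213 ± 2.6 CPM in control. The phosphatase DUSP5 and the AP-1 subunit FOSL2 had log2 changes of −0.66 and −0.57.

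Cell cycle genes rose more often than they fell, with a few exceptions among replication genes. In the G1/S and DNA replication list 28 members rose and 4 fell out of 48, with a median log2 change of 0.18, and in the G2/M and mitosis list 28 members rose and 3 fell out of 50, with a median of 0.14. In the mitosis list the count of falls was 1 without control replicate 3 and 1 without siRNA 1 replicate 1. Both medians are small beside the rises of single genes above. The replication licensing factor CDT1 had 109, 115 and 116 CPM under siRNA 1, against 82.3, 79 and 83.1 CPM in control. CCNE2, a G1 cyclin, and RRM2, a subunit of ribonucleotide reductase, rose by log2 changes of 0.50 and 0.42. Opposite to them, MCM6, a helicase subunit, had 119.9, 122 and 123 CPM under siRNA 1, against 140.5, 149 and 143 CPM in control. CDC6, a loader of that helicase, and CHAF1B, a histone chaperone subunit, had log2 changes of −0.26 and −0.28. Of the mitotic genes CCNB2, a mitotic cyclin, had 82.7, 82.3 and 89.7 CPM under siRNA 1, against 54.7, 60.9 and 59 CPM in control. PRC1, a cross-linker of spindle microtubules, had 173, 159 and 181 CPM under siRNA 1, against 116, 124 and 123 CPM in control. BIRC5, a subunit of the chromosomal passenger complex, had 166 ± 4.2 CPM under siRNA 1 and 125 ± 3.9 CPM in control. ANLN, a scaffold of the cleavage furrow, was lower, at 276 ± 3.9 CPM under siRNA 1 and 309 ± 7.8 CPM in control. Among cyclins, kinases and inhibitors, the inhibitor CDKN1C had 19.3 ± 2.5 CPM under siRNA 1 and 11.7 ± 1.6 CPM in control and rose. The pocket protein RBL2 had 67.1 ± 1.1 CPM under siRNA 1 and 42.9 ± 1.3 CPM in control and rose as well. CDKN1A, the inhibitor p21, fell like CCND1, at 349 ± 13.3 CPM under siRNA 1 and 571 ± 12.4 CPM in control.

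The promoters of CCNB2 and PRC1 are shown because mitotic genes are known to be controlled through a CCAAT box, bound by NF-Y, next to a CHR element of sequence TTTGAA, bound by the DREAM and MuvB complexes. Capitals mark both elements. The CCNB2 window (chr15:59104896-59105137, plus strand) holds CCAAT at −244, −120, −87 and −54 and TTTGAA at −29 from the annotated start, and the PRC1 window (chr15:90994536-90994603, minus strand) holds CCAAT at −53 and TTTGAA at −20.
CCNB2: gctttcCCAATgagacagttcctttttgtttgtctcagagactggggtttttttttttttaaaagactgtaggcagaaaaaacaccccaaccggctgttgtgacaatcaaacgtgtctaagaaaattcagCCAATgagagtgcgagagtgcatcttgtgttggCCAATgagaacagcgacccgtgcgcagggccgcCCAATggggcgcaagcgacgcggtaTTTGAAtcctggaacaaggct
PRC1: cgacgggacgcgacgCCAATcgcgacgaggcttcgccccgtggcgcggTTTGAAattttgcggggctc
Searched on both strands over the same window as above, the letters TTTGAA were in 18 of the 24 mitotic members that rose and have a promoter in the table, in 2 of 2 that fell and in 8 of 16 that were not called, against 15.4% of all promoters. They were in 1 of the 25 replication members that rose. The CCAAT box was in 19 of the 24 mitotic members that rose, in 12 of the 16 that were not called, in 17 of the 25 replication members that rose and in 35.7% of all promoters. TTTGAA and CCAAT do not overlap each other.

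Targets of p53 fell more often than they rose. HCT116 cells carry a normal p53 gene, and p53 induces genes of cell cycle arrest, DNA repair and apoptosis. In this list 4 members rose and 19 fell out of 31, with a median log2 change of −0.27, and the summed level was 3763 ± 16.9 CPM under siRNA 1 and 3766 ± 67.9 CPM in control. KITLG, given above, is one of the members that rose. PLK3, a stress kinase, had 49.5, 45.9 and 45.4 CPM under siRNA 1, against 82.6, 77.5 and 81.6 CPM in control. ZMAT3, an RNA-binding protein, had 40.2, 41.3 and 41.2 CPM under siRNA 1, against 74.3, 66 and 69 CPM in control. RRM2B, a p53-inducible reductase subunit, and GDF15, a stress cytokine, had log2 changes of −0.68 and −0.55. BBC3, the pro-apoptotic protein PUMA, rose, at 22.6, 25.3 and 21.7 CPM under siRNA 1, against 14.9, 13.9 and 16 CPM in control. Among apoptosis regulators 7 members rose and 7 fell out of 23. The pro-apoptotic BCL2L11 had 56.9, 54.6 and 52.5 CPM under siRNA 1, against 34.4, 33 and 30.1 CPM in control. The pro-apoptotic BMF and the anti-apoptotic MCL1 had changes of −0.87 and −0.21.

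Heat shock chaperones and lysosomal genes fell far more often than they rose. Among heat shock chaperones 2 members rose and 14 fell out of 20. HSPB8, a small chaperone of selective autophagy, had 4.25, 5.82 and 5.41 CPM under siRNA 1, against 11.8, 10.9 and 10.3 CPM in control. DNAJB4, a J-domain co-chaperone, had 25.3, 22.4 and 24.3 CPM under siRNA 1, against 41.9, 42.9 and 39.2 CPM in control. The co-chaperones CHORDC1 and STIP1 had log2 changes of −0.39 and −0.25. HSPA8, the constitutive chaperone, rose, at 1852 ± 25.2 CPM under siRNA 1 and 1513 ± 21.4 CPM in control, as did HSP90AB1. The summed level of the list was 11792 ± 88.7 CPM under siRNA 1 and 11586 ± 127 CPM in control. Of the proteasome subunits and assembly factors 1 member rose and 14 fell out of 46. That is 30.4% lower, near the 29.3% of the highest quartile of genes by level, and 2.17% higher, a single gene whose call was lost without siRNA 1 replicate 3. PSMD2, a scaffold subunit of the regulatory particle, had 346, 357 and 361 CPM under siRNA 1, against 511, 526 and 521 CPM in control. The ATPase subunit PSMC2 and the activator subunit PSME2 had log2 changes of −0.35 and −0.43. In the lysosome and autophagy list 2 members rose and 22 fell out of 42, with a median log2 change of −0.23 and a summed level of 3015 ± 27 CPM under siRNA 1 and 3457 ± 13.4 CPM in control. The sialidase NEU1 had 22.8, 28.3 and 27.5 CPM under siRNA 1, against 45, 46.6 and 47.7 CPM in control. The protease CTSL had 32.8 ± 0.84 CPM under siRNA 1 and 58.1 ± 3.8 CPM in control. NPC1, which exports cholesterol from lysosomes, had 76.7 ± 5.5 CPM under siRNA 1 and 108 ± 5 CPM in control. Outside the list, ATP6V1A, the catalytic subunit of the proton pump that acidifies lysosomes, had 38.2, 39.8 and 43.2 CPM under siRNA 1, against 91.1, 91.2 and 87.8 CPM in control. GAA, the lysosomal glucosidase, moved the other way, at 179.99 ± 6.3 CPM under siRNA 1 and 128 ± 6 CPM in control. Of the cytosolic ribosomal proteins 17 of 81 rose (21.0%) and 1 fell (1.23%), beside 27.2% and 29.3% in the highest quartile of genes by level. RPL11, which rose, had 544 ± 12.9 CPM under siRNA 1 and 424 ± 24.9 CPM in control. With the replicate number as a block 32 ribosomal proteins rose and 5 fell. Without control replicate 1, 5 fell. Of the tRNA synthetases 6 members rose (17.6%) and 8 fell (23.5%) out of 34. The synthetases of the cytosol YARS1 and GARS1 had log2 changes of −0.39 and −0.39. The mitochondrial synthetases HARS2 and EARS2 rose by 0.32 and 0.28.

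**Figure D4:**
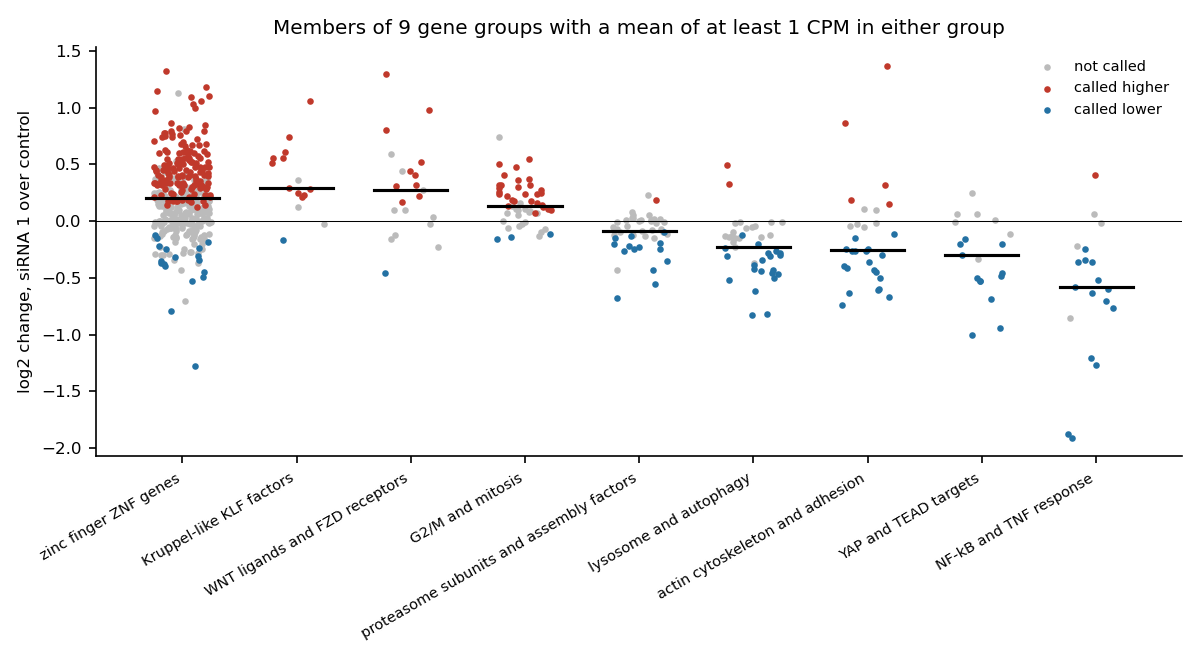
Log2 change under siRNA 1 of the members of 9 gene groups that averaged 1 CPM or more under siRNA 1 or in control, coloured by call, with a black bar at the median of each group. The medians run from 0.29 for KLF factors to −0.58 for NF-kB and TNF genes, and the members of a group spread over both sides of 0.

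Metabolic and transport genes changed in both directions. In the glycolysis and hypoxia list 6 members rose and 15 fell out of 32. The glucose transporter SLC2A1 had 791, 792 and 784 CPM under siRNA 1, against 1142, 1146 and 1159 CPM in control. The platelet-type phosphofructokinase PFKP and the hexokinase HK1 had log2 changes of −0.47 and −0.42. The liver-type phosphofructokinase PFKL had 263, 266 and 263 CPM under siRNA 1, against 197, 194 and 199 CPM in control. The isoforms PFKP and PFKL thus changed in opposite directions. EPAS1, a hypoxia-inducible factor, had 39.1, 38.6 and 38.7 CPM under siRNA 1, against 69.6, 71.2 and 67.9 CPM in control. In the cholesterol list 6 members rose and 13 fell out of 30. INSIG1, a sterol-sensing inhibitor of the pathway, had 75.2, 69.8 and 75.1 CPM under siRNA 1, against 49, 46 and 50.6 CPM in control. The synthesis enzymes MSMO1 and SC5D fell, with log2 changes of −0.47 and −0.47. Among genes of fatty acid metabolism SREBF1, the lipogenic transcription factor, had 211 ± 4.7 CPM under siRNA 1 and 147 ± 4.7 CPM in control. The fatty acid synthase FASN and the acyl-CoA synthetase ACSL5 rose by log2 changes of 0.28 and 0.59. PLIN2, a lipid droplet coat protein, had 137 ± 3.2 CPM under siRNA 1 and 203 ± 1.4 CPM in control. ANGPTL4, an inhibitor of lipoprotein lipase, had 181 ± 4 CPM under siRNA 1 and 303 ± 11.2 CPM in control. Among ABC transporters 2 members rose and 13 fell out of 35. The drug efflux pump ABCB1 had 3.62, 3.75 and 4.93 CPM under siRNA 1, against 8.84, 9.41 and 8.03 CPM in control. The peroxisomal transporter ABCD3 and the sterol exporter ABCG1 had log2 changes of −0.67 and −1.11. Of 269 tested solute carriers 43 rose (16.0%) and 63 fell (23.4%). The phosphate transporter SLC20A1 had 146, 153 and 155 CPM under siRNA 1, against 299.6, 300.02 and 289 CPM in control. The bicarbonate transporter SLC4A7 rose, at 121 ± 4.4 CPM under siRNA 1 and 67.5 ± 1.2 CPM in control, while SLC4A8 of the same family fell.

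Genes of the RNA interference machinery, through which small interfering RNAs act, were called about as often as other genes. Of 19 tested genes 4 rose (21.1%) and 4 fell (21.1%), beside 27.2% and 29.3% in the highest quartile of genes by level. AGO2, the Argonaute that cuts targets, had 299, 292 and 295 CPM under siRNA 1, against 252, 239 and 242 CPM in control. DICER1, which cuts precursors, had 85.1 ± 1.2 CPM under siRNA 1 and 99.7 ± 3.6 CPM in control. TNRC6B, a scaffold of silencing, had 49.2, 51.1 and 49.3 CPM under siRNA 1, against 74.9, 73.5 and 72.9 CPM in control. The number that rose was 2 without siRNA 1 replicate 1 and 2 without control replicate 3. Among chromatin and DNA methylation enzymes 8 members rose and 1 fell out of 34. The falls numbered 4 without control replicate 3, 2 without siRNA 1 replicate 1 or 2, and 5 in DESeq2. The Polycomb protein CBX2 had 79.4 ± 2.3 CPM under siRNA 1 and 49.3 ± 2.4 CPM in control, and the deacetylase HDAC9 had a log2 change of −0.77. Histone genes had 8 of 40 higher and 8 lower, a count of falls that was 3 to 4 when control replicate 2, siRNA 1 replicate 1 or siRNA 1 replicate 3 was left out. H3-3B, a replacement histone gene, rose, at 911, 929 and 931 CPM under siRNA 1, against 703, 730.2 and 732 CPM in control.

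Set directly against siRNA 2, siRNA 1 left a partly different set of levels. The level of ORM1 under siRNA 2 is not given here. Whether the differences between the siRNAs go with unequal depletion of ORM1 was not tested. Of the 20932 tested genes 1694 (8.09%) were higher under siRNA 1 than under siRNA 2 and 2058 (9.83%) were lower, by the quasi-likelihood test of edgeR at a Benjamini-Hochberg adjusted p below 0.05. With no scaling beyond the total count these numbers were 2017 and 1666. Both siRNAs are compared with the same control libraries, so their values are given side by side without a measure of overlap. A gene was taken as differing between the siRNAs only where this direct test called it, as it did for 2412 of the 6389 genes called under siRNA 1 against control. The genes below are among those with the largest differences of siRNA 1 from siRNA 2 among these 2412 genes, at a mean of at least 5 CPM.

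Several of the largest rises of siRNA 1 did not pass the test under siRNA 2. COL17A1 had 1.89, 1.56 and 2.36 CPM under siRNA 2, overlapping its control range, and differed by 1.91 (SE 0.19) on the log2 scale. For PROM2 the siRNA 2 values were 2.18, 2.55 and 1.64 CPM and for YPEL1 2.52, 2.08 and 2.56 CPM, with differences of 1.39 (SE 0.18) and 1.30 (SE 0.24). The siRNA 2 values of PROM2 overlapped its control values, while those of YPEL1 all lay above them, at a log2 change of 0.61 and an adjusted p of 0.0877 in edgeR's quasi-likelihood test. DHRS2, SOX4, SCG2 and TEX19 rose under both siRNAs but further under siRNA 1. Their log2 changes were 2.70, 1.85, 2.08 and 2.85 for siRNA 1, beside 1.42, 0.62, 0.86 and 1.70 for siRNA 2. Between the siRNAs these 4 genes differed by 1.28, 1.23, 1.22 and 1.15, with a highest adjusted p of 0.000148 for TEX19. CXCL8, the first of the 12 falls described above, had log2 changes of −1.91 under siRNA 1 and −1.92 under siRNA 2, with a difference of 0.01 (SE 0.14) and an adjusted p of 0.971.

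Among genes below their siRNA 2 level, ANKRD40 had 46.3, 48.8 and 43.5 CPM under siRNA 1, 122, 122 and 122 CPM under siRNA 2 and 125, 110.1 and 114 CPM in control, so its siRNA 2 libraries stood within the control range and its fall was called for siRNA 1, with a difference of −1.40 (SE 0.05). KYAT1, with 7.4, 7.91 and 8.72 CPM under siRNA 2, differed by −1.35 (SE 0.17). CFL2 had 34.4 ± 1.8 CPM under siRNA 1, 73.4 ± 2 CPM under siRNA 2 and 88.6 ± 3.2 CPM in control. ATP6V1A had 40.4 ± 2.6 CPM under siRNA 1, 81.5 ± 1.4 CPM under siRNA 2 and 90.02 ± 1.9 CPM in control. NCEH1 had 15.5 ± 2.5 CPM under siRNA 1, 30.3 ± 1.3 CPM under siRNA 2 and 51.2 ± 1 CPM in control. These 3 genes fell under both siRNAs, but siRNA 1 lay −1.09, −1.01 and −0.97 from siRNA 2 on the log2 scale. In DIAPH3, ME2 and PIMREG the siRNAs moved in opposite directions. DIAPH3 had 21.4, 24.7 and 21.1 CPM under siRNA 1, 49.1, 52.4 and 50.6 CPM under siRNA 2 and 38.6, 34.8 and 38.9 CPM in control. ME2, a mitochondrial malic enzyme, had 37.1, 35.8 and 34 CPM under siRNA 1, 71.1, 74.3 and 72.6 CPM under siRNA 2 and 64, 63.2 and 62.3 CPM in control. PIMREG, a mitotic regulator, had 21.9, 21.5 and 22.1 CPM under siRNA 1, 40.5, 44.1 and 43.4 CPM under siRNA 2 and 33.9, 35.2 and 34.4 CPM in control. In all 3 genes the siRNA 1 libraries lay below and the siRNA 2 libraries above all control libraries, and the differences were −1.18 (SE 0.07), −1.03 (SE 0.04) and −0.97 (SE 0.05). The replication genes named above as lower under siRNA 1 behaved alike. CHAF1B had 34.3 ± 0.89 CPM under siRNA 1, 56.9 ± 1.9 CPM under siRNA 2 and 41.5 ± 0.67 CPM in control. CDC6 had log2 changes of −0.26 under siRNA 1 and 0.30 under siRNA 2, and MCM6 of −0.24 and 0.43. Their differences from siRNA 2 were −0.73 for CHAF1B, −0.56 for CDC6 and −0.67 for MCM6, with a highest adjusted p of 1.40e-06 in edgeR's quasi-likelihood test. Over all tested genes 55 rose under siRNA 1, fell under siRNA 2 and were called between them, and 80 did the reverse.

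**Figure D5:**
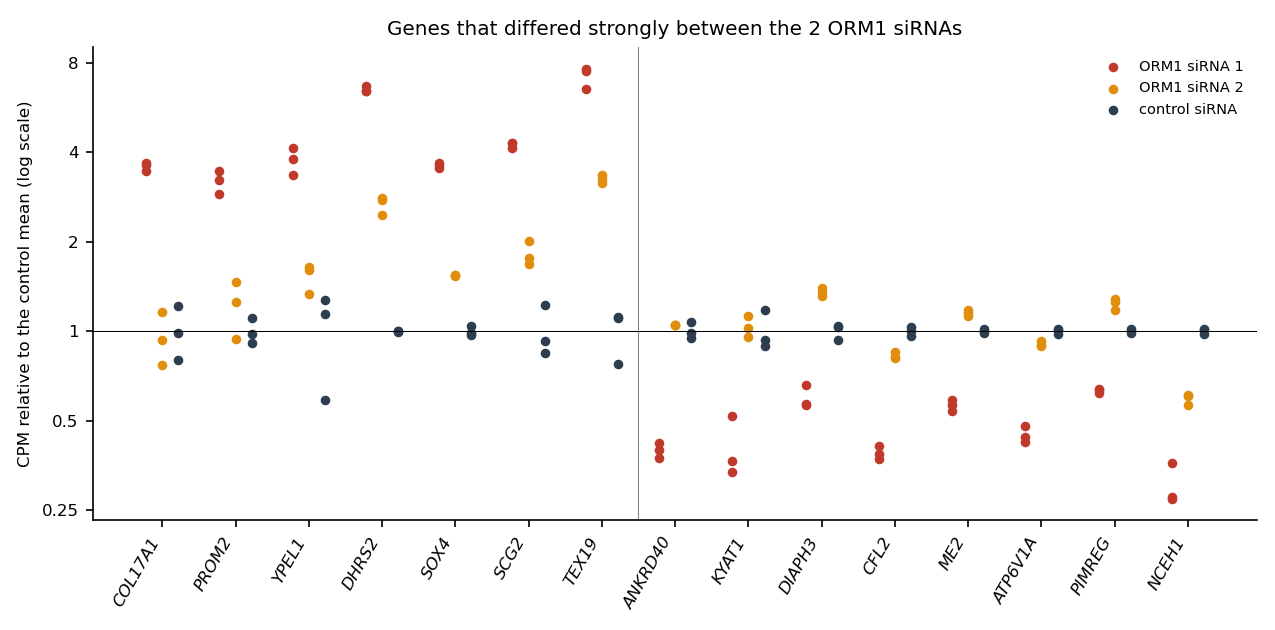
Level relative to the control mean, on a log axis, of 7 of the genes furthest above (left) and the 8 furthest below (right) their siRNA 2 level, with 1 point per library for siRNA 1 (red), siRNA 2 (orange) and control (dark). COL17A1, ANKRD40 and KYAT1 under siRNA 2 lie around 1, the control level, and DIAPH3, ME2 and PIMREG under siRNA 2 lie above it.

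The depletion of ORM1 was set beside the levels of its neighbours among tested genes, which reach 982.8 kb on 1 side and 6062.4 kb on the other. Of the 10 tested genes on either side of ORM1 on chromosome 9 (ORM1 at chr9:114323056-114326475 of GRCh38, plus strand, by GENCODE 29, while the submitters' processing notes name hg19), 7 rose and 0 fell in edgeR's quasi-likelihood test, against 15.7% and 14.8% of all tested genes. The nearest gene other than ORM2 is AKNA, 7.7 kb away, with 24.4, 24.6 and 23.8 CPM under siRNA 1, against 20.7, 18.7 and 20.6 CPM in control. COL27A1, 10.5 kb away on the other side, had 25.9 ± 1.4 CPM under siRNA 1 and 25.2 ± 1.3 CPM in control and did not pass the test. BSPRY, 951.8 kb away, had 36.4, 38.1 and 35.6 CPM under siRNA 1, against 24.5, 24.8 and 23.3 CPM in control. ZNF618, 266.5 kb away, had 34, 37.3 and 34.4 CPM under siRNA 1, against 26.6, 24.8 and 23.4 CPM in control. RGS3, TRIM32 and CDK5RAP2, which lie 725.3, 2360.8 and 6062.4 kb away, rose by log2 changes of 0.23, 0.22 and 0.23. C9orf43, 893.4 kb away, at 0.8 ± 0.12 CPM under siRNA 1 and 0.254 ± 0.17 CPM in control, rose at a low level, a call that was lost without control replicate 1 or siRNA 1 replicate 3. In the falling direction 2 of the 20 neighbours had an unadjusted p below 0.05 in edgeR, and DESeq2 and limma-voom called 2 each, ORM2 among them.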

How the data were processed

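RNA of 9 libraries was sequenced. Per the labels, total RNA was extracted with Trizol and libraries were made by standard Illumina protocols. The deposited values are whole-number read counts per gene, not normalized, made by the authors. The submitters' processing notes name the genome build hg19, and the sources used here name no aligner, counter, annotation or strand setting. The table lists 61806 genes, of which 26220 were at 0 in every library. Counts of 4 (11894 values) outnumbered counts of 3 (6787) and of 5 (4317), so small counts may not each stand for a separate fragment, and counting error may be larger than the counts imply.

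Genes were filtered with filterByExpr and scaled by TMM, and all 9 libraries entered 1 edgeR (4.0.16, R 4.3.3) quasi-likelihood fit, so that the groups share the estimate of the spread. Contrasts were siRNA 1 minus control and siRNA 1 minus siRNA 2, each adjusted by Benjamini-Hochberg over 20932 genes. SE is the log2 change divided by the root of the F statistic. Levels are counts per 1000000 after TMM scaling. Replicates of a group differed by more than sampling noise (chi-square over degrees of freedom 9.01 to 13.7), so none was counted as a duplicate. The scripts were tested on simulated data with known changes. Alternatives were DESeq2 1.42.0, limma-voom 3.58.1, other scalings and filters, a replicate block, the 6 libraries alone and each library left out.

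Genes are named by rule: ORM1 and ORM2, the 12 largest rises and falls, the 8 largest level shifts each way, the 8 largest differences from siRNA 2 each way, up to 5 called members each way and the 2 highest of every list, the neighbours of ORM1 and the cell type markers. Some genes that this rule selects are not reported here. The members and lists were chosen with earlier results of these data known, so no list was tested. Promoters were matched by symbol to RefSeq sequences. Computation used Python 3.11.15, pandas 2.3.3, numpy 2.4.6, scipy 1.17.1 and matplotlib 3.10.9.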

Additional observations from a re-analysis of the deposited data

Results flagged for a closer look

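In 11 of the genes described above, siRNA 1 and siRNA 2 moved the level in opposite directions from the same control, with each change called and the difference between the siRNAs called by edgeR's quasi-likelihood test. Among genes lower under siRNA 1 and higher under siRNA 2, the log2 difference of siRNA 1 from siRNA 2 was −1.18 for DIAPH3, −1.03 for ME2 and −0.97 for PIMREG. It was −0.73 for CHAF1B, −0.67 for MCM6 and −0.56 for CDC6, all genes of DNA replication. It was −0.49 for YARS1 and −0.27 for ANLN. Among genes higher under siRNA 1 and lower under siRNA 2 it was 0.42 for MT-RNR1, 0.54 for MT-RNR2 and 0.76 for DUSP4.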

How the results depend on the processing

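Of the 197 called genes named above for siRNA 1 against control, 0 reversed and 1, C9orf43, lost its call when a library was left out, as given above; the 15 differences between the siRNAs tested this way kept their calls in every setting run. For siRNA 1 against control, the counts of genes that rose and fell were 2662 to 2959 and 2610 to 2782 when 1 of the 6 libraries was left out. Against siRNA 2 they were 1171 to 1326 higher and 1524 to 1806 lower. DESeq2 called 3434 and 3423 against control and limma-voom 3335 and 3203. Counting only changes of at least 2-fold left 290 and 237 genes against control, and 141 and 48 against siRNA 2. ORM1 kept its call in every setting that has a value for it. With the stricter count filter of at least 1 CPM in 3 libraries there is no value for ORM1 or ORM2. ORM2 passed the threshold at log2 changes of −2.39 with only the 6 libraries compared, −2.39 in DESeq2 and −3.50 in limma-voom, and lay between −3.63 (without siRNA 1 replicate 1, past the threshold) and −1.80 when 1 library was left out. Between siRNA 1 and control libraries the correlations of deviations were −0.019 to 0.019, whether or not the replicate numbers matched. Such correlations cannot exclude a replicate effect in some genes, and the calls of ribosomal proteins changed with the replicate block. With that block 3312 and 3140 genes were called against control and 1680 and 2114 against siRNA 2. Of 176 list counts, 48 moved by more than 1.5 times in some setting. Genes of few counts, such as ORM1, are limited by depth.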
